A study of Homo sapiens with 4 samples.

Results

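The mitochondrial ribosomal proteins described here are the genes whose symbol is MRPL or MRPS followed by a number and at most 1 letter. Of 39323 genes listed, 78 carried such a name, and all 78 had a mean of at least 1 TPM (transcripts per 1000000, a level per transcript length) over the 4 libraries and so entered with 12985 tested genes in all. The libraries were poly-A RNA-seq of RD and JR1, human cell lines of fusion-negative rhabdomyosarcoma, a childhood tumour with features of the muscle lineage. Each line had been infected with a lentivirus carrying either shSKP2 (the hairpin shSKP2.2 against SKP2) or shSCR, a hairpin with no target, and gave 1 library per condition. SKP2 is the substrate receptor of a ubiquitin ligase that marks cell cycle inhibitors for destruction. The question put to the members is how their transcript levels moved with loss of SKP2 and how they differed between the lines. A change within a line has no replicate. A test of the knockdown was possible only with the lines as replicates of each other, that is 2 libraries per condition. It rests on the spread between these 2 lines, shared for the most part with that of all genes, and not on the spread between cultures. A test between the lines had only the shSCR and shSKP2 libraries of a line as its replicates. Only 1 of the hairpins against SKP2 was sequenced. Libraries of whole cultures do not tell fewer cells with a transcript from less transcript per cell.

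Mitochondrial ribosomes make the few proteins that mitochondrial DNA encodes, all of them membrane subunits of the respiratory chain and of ATP synthase. Their rRNAs come from mitochondrial DNA, but all of their proteins are encoded in the nucleus, translated in the cytosol and imported. The large subunit joins amino acids and holds the exit tunnel of the new chain, and the small subunit binds and decodes the mRNA. Part of the proteins have relatives in bacterial ribosomes and part were gained in mitochondria. By general knowledge of the ribosome, 51 members belong to the large subunit (30 with bacterial relatives, 21 without) and 26 to the small subunit (16 with, 10 without). MRPS18A and MRPS30 are counted with the large subunit, where their proteins sit despite the name. MRPS36 is left over, since it is known as a subunit of the 2-oxoglutarate dehydrogenase complex. The mitochondrially encoded mRNAs and rRNAs were not analysed here.

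The samples were first checked against their labels. SKP2 was at 92.8 TPM in RD shSCR, 7.4 in RD shSKP2, 46.5 in JR1 shSCR and 2.72 in JR1 shSKP2. It was thus lower by 3.48 on the log2(TPM + 1) scale in RD (a change of -3.48) and by a change of -3.67 in JR1. The muscle lineage genes MYOD1, MYOG, DES, CDH15 and CHRNA1 were above 30 TPM in every library, while PAX7 lay between 1.16 and 10.8 TPM and MYF5 was listed at 0 in all 4. The share of TPM taken by short structural RNA genes (3059 genes by symbol) differed between the libraries: it was 58.6% in RD shSCR, 69.1% in RD shSKP2, 66.5% in JR1 shSCR and 72.1% in JR1 shSKP2. TPM sum to a fixed total, and the median of all tested genes was at -0.27 in RD and -0.21 in JR1. Values below are given on 3 scales where the scale matters: as deposited, relative to that median, and with the short RNA genes removed and the rest rescaled. On the last scale the limit of 1 TPM was applied again after rescaling, so that its backgrounds are over 15193 tested genes.

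At the level of sequence, a minority of the members share a word close to their start sites. The word AAGATGGC, the core of the motif bound by the transcription factor YY1, stood in 20 of 69 members with a promoter entry in RefSeq, against 5.49% of 10090 promoters of tested genes and 3.03% of all 27305 promoters (250 bases before to 50 after the start, either strand, GRCh38.p14). On the strand of the gene and within the first 50 bases after the start it stood in 15 members (21.7%), against 3.16% of the tested genes and 1.39% of all. In 12 members the ATG inside the word is the annotated start codon, so that the word joins the end of the leader and the first codons. Windows of 30 bases are shown for 8 of them, chosen because they return in the results and not as a sample of the members. MRPS7, MRPS27 and MRPL38 were called lower as deposited. MRPS18B, also called lower as deposited, MRPS18A and MRPS10 lie on chromosome 6. MRPS24 is 1 of the highest members and MRPL22 is 1 of the lowest. They run 5′ to 3′ on the strand of the gene, with the word in capitals.
MRPS7, chr17:75261887-75261916, plus strand: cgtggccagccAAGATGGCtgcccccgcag
MRPS27, chr5:72320206-72320235, minus strand: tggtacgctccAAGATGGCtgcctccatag
MRPL38, chr17:75904860-75904889, minus strand: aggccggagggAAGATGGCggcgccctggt
MRPS18B, chr6:30617852-30617881, plus strand: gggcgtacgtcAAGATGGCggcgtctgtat
MRPS18A, chr6:43687764-43687793, minus strand: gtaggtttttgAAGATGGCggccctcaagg
MRPS10, chr6:42217834-42217863, minus strand: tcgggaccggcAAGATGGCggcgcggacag
MRPS24, chr7:43869480-43869509, minus strand: ccgcttggcccAAGATGGCggcctccgtgt
MRPL22, chr5:154941093-154941122, plus strand: gtagcgggagggcgaAAGATGGCggcggca

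Other words searched on either strand of the same windows were less different from the background. CCGGAAGT, a site of ETS factors such as GABPA, stood in 15.9% of the members' promoters and in 9.19% of those of tested genes. GCGCATGC, the core of the NRF1 site, stood in 8.7% and 5.67%. The E-boxes CACGTG and CAGCTG stood in 8.7% and 10.1% of the members, against 10.5% and 17.2%. A match says only that these letters are in the window.

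The members also lie close to other genes. In GENCODE 44, 26 of 78 (33.3%) had a protein-coding gene that starts on the other strand within 1000 bases, against 1558 of 11585 other tested protein-coding genes (13.4%). MRPS11 and MRPL46 are each other's partner, with starts 320 bases apart on chromosome 15. Some partners also serve mitochondria: SARS2, the mitochondrial serine tRNA synthetase, beside MRPS12, TWNK, the helicase of mitochondrial DNA, beside MRPL43, NDUFB5, a subunit of complex I, beside MRPL47, and PTCD2 beside MRPS27. Across 22 pairs with both genes tested, Pearson's r between the changes of member and partner was 0.015 in RD and -0.028 in JR1, given as a description. MRPS12, which lies at the decoding centre, was at 75.9 TPM with shSCR and 72.2 with shSKP2 in RD, and at 63.4 and 53.3 in JR1, while SARS2 went from 27.2 to 11.7 and from 16.0 to 8.44 TPM. The pair differed in both lines, with changes of -0.07 and -0.25 for MRPS12 and of -1.15 and -0.85 for SARS2.

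The highest and lowest member of a library were 32.7- to 42.0-fold apart, and Spearman's rho of the levels between libraries ran from 0.921 to 0.965 over the 6 pairs, so that their order was much the same in all 4. The median member was at 27.5 TPM in RD shSCR, 22.6 in RD shSKP2, 21.1 in JR1 shSCR and 18.5 in JR1 shSKP2, above the medians of all tested genes of 11.1, 8.66, 9.18 and 7.55 TPM. Large subunit genes had the higher median in each library, 29.3 against 23.9 TPM in RD shSCR and 19.0 against 15.5 in JR1 shSKP2. The summed TPM of the members was 2641 in RD shSCR, 2105 in RD shSKP2, 2203 in JR1 shSCR and 1870 in JR1 shSKP2. As a share of the TPM outside the short RNA genes these sums were 0.638%, 0.681%, 0.657% and 0.671%. The sum of the family as deposited was thus lower with shSKP2 in both lines, while its share of the other RNA was higher by a small margin in both.

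**Figure D1:**
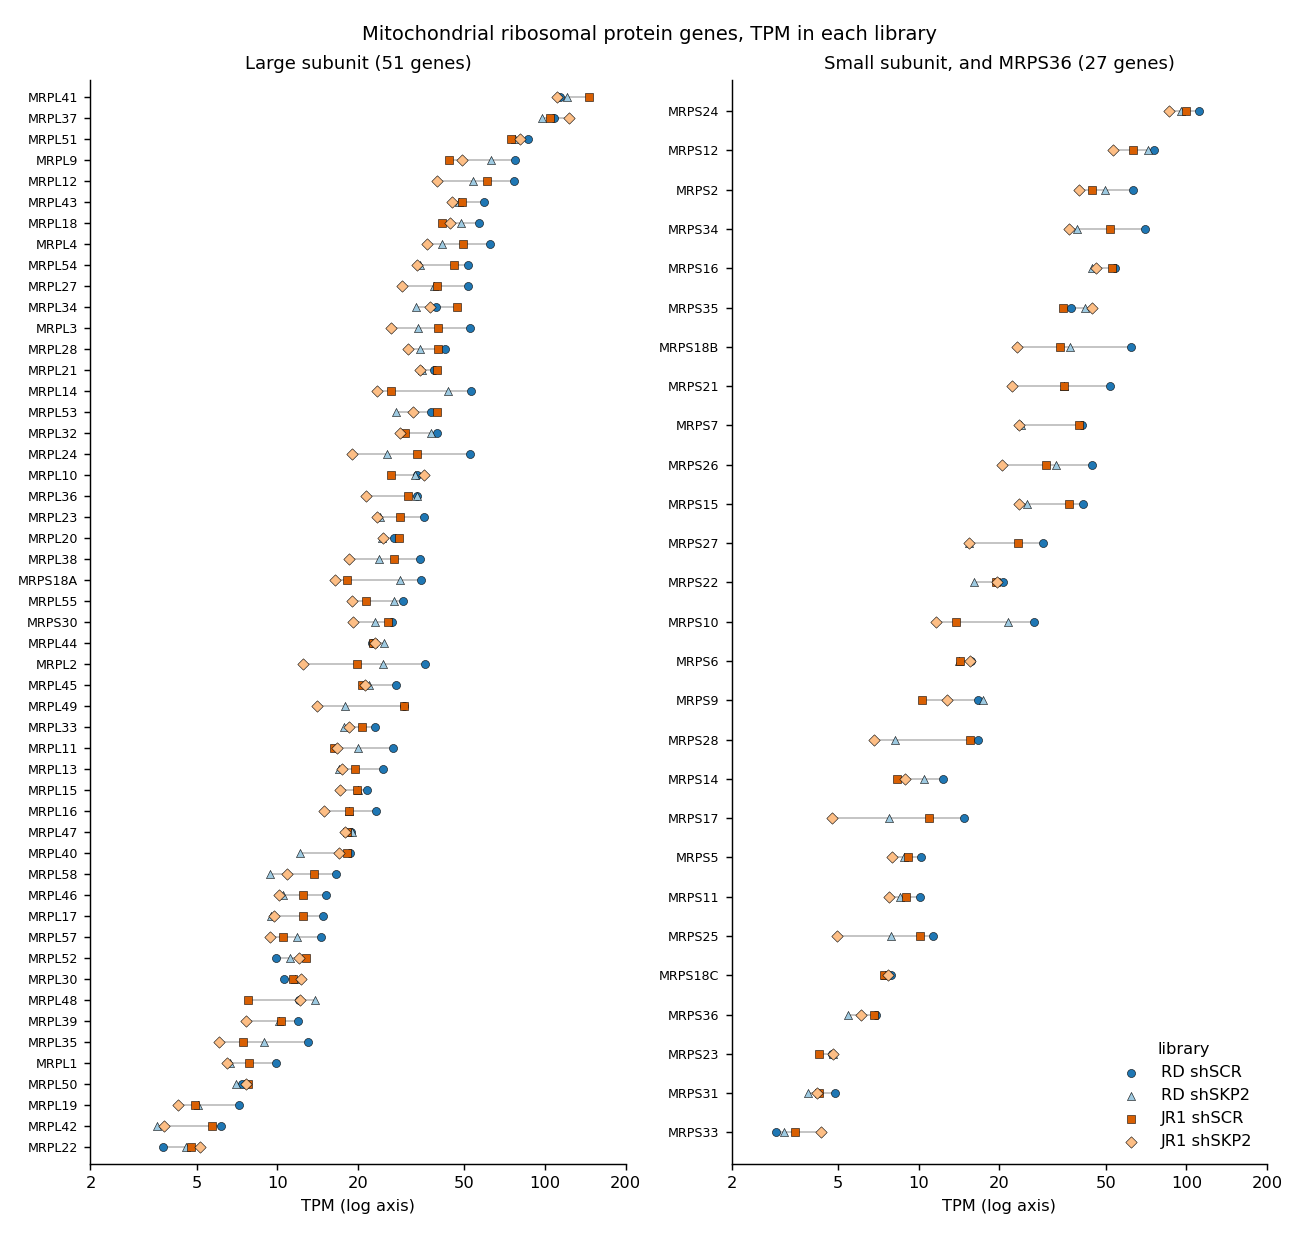
TPM of each of the 78 genes on a log axis, the large subunit on the left and the small subunit with MRPS36 on the right, sorted by mean; the 4 symbols are the 4 libraries and the grey bar spans them. The spread between libraries is small beside the spread between genes, which runs from 3.46 TPM (MRPS33) to 123 TPM (MRPL41) in the mean.

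The highest member was MRPL41, a large subunit protein gained in mitochondria, at 114 TPM in RD shSCR, 121 in RD shSKP2, 145 in JR1 shSCR and 111 in JR1 shSKP2. MRPL37 followed at 108, 97.5, 105 and 123 TPM in the same order, and MRPS24 at 112, 95.4, 99.6 and 86.1. The ranges of these 3 over the libraries overlap, so that their order is not fixed beyond their spread. MRPL51 was at 86.6, 77.2, 74.8 and 80.6 TPM and MRPS12, given above, came next. At the other end, nearest to the limit of 1 TPM, MRPS33 was at 2.93, 3.13, 3.46 and 4.32 TPM, MRPS31 at 4.85, 3.86, 4.25 and 4.16, and MRPL22 at 3.72, 4.56, 4.75 and 5.13. No name match lay under the limit.

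On knockdown, the median change of the members was close to that of all tested genes. It was -0.30 in RD and -0.20 in JR1, beside -0.27 and -0.21 over all tested genes. Relative to all genes it was -0.03 in RD and 0.01 in JR1, and with the short RNA genes removed 0.10 in RD and 0.05 in JR1, beside 0.12 and 0.01 for all genes. The direction of the family as a whole therefore turned with the scale. As deposited, 55 of 78 members (70.5%) were lower in both lines, against a background of 61.1% of tested genes, 8 were higher in both, against 17.0%, and 15 had opposite signs, against 21.3%.

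Large single changes were few. 1 member, MRPL24, was lower by at least 1 on the log2 scale (2-fold) in RD, where the background was 7.37%, and 3 members, MRPS28, MRPS17 and MRPL49, were so in JR1, where it was 9.05%. None was higher by that much in RD (background 1.08%) or JR1 (background 1.78%). At 1.5-fold, 15 members were lower in RD (19.2%, background 23.2%) and 10 in JR1 (12.8%, background 23.4%), and none was higher (backgrounds 3.20% and 5.31%). The interquartile range of the changes was 0.37 in RD and 0.42 in JR1 for the members, against 0.56 and 0.63 for all tested genes and 0.55 and 0.64 for the 9719 tested genes in the members' range of mean TPM. It was 0.26 and 0.29 for the 84 cytosolic ribosomal protein genes and 0.37 and 0.41 for the 77 nuclear subunits of oxidative phosphorylation, so that a range below that of all tested genes was not particular to the members.

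**Figure D2:**
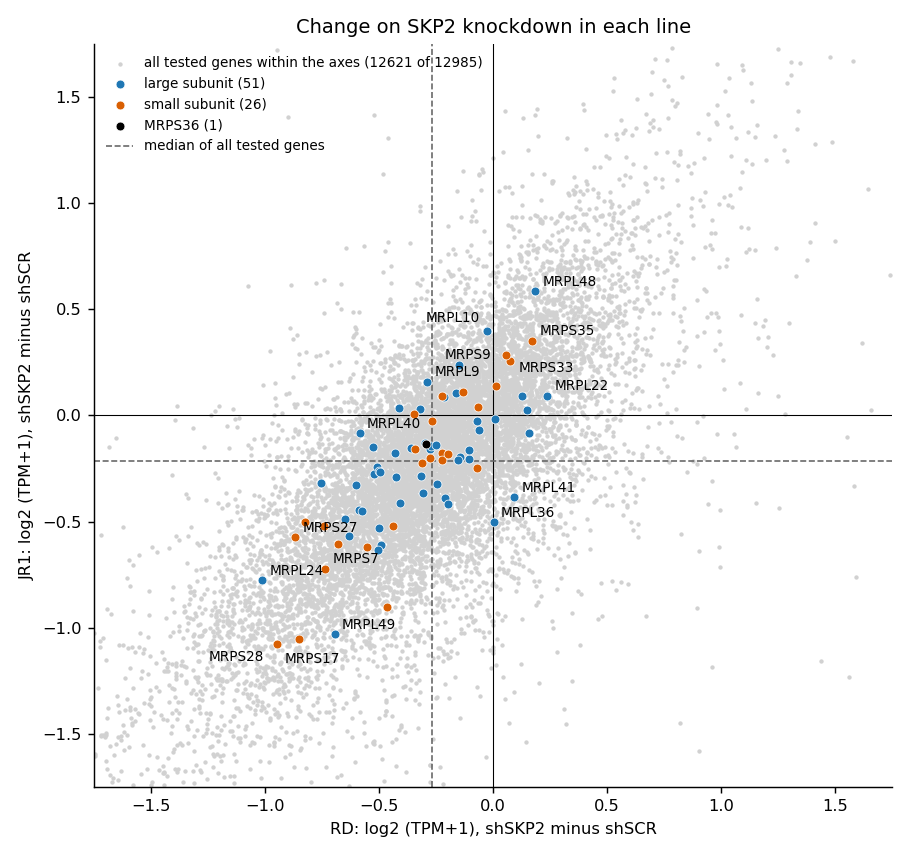
Change on knockdown, log2(TPM + 1) of shSKP2 minus shSCR, in RD (x axis) and JR1 (y axis), for all tested genes within the axes (grey) and the members (coloured by subunit); dashed lines mark the medians of all tested genes, -0.27 and -0.21. The members run along the diagonal from MRPS28 and MRPS17 to MRPL48, with MRPL36 and MRPL41 off it.

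What a member did in RD it also tended to do in JR1. Across the 78 members, Pearson's r of the changes was 0.75 and Spearman's rho 0.72 (0.62 and 0.70 across 12985 tested genes). These lines share no library, but genes are not independent replicates and each line's changes carry the scale of its own pair of libraries. The changes did not go with the length of the canonical transcript, which ran from 496 to 15557 bases (Spearman's rho 0.11 in RD and 0.21 in JR1).

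With the lines as replicates of the knockdown, limma with line as a block called 22 of 78 members lower (28.2%), beside a background of 26.6% of tested genes, and none higher, beside 3.84% (Benjamini-Hochberg adjusted p under 0.05 over all tested genes). At an unadjusted p under 0.05 limma had 28 members lower and 1 higher, beside 36.7% and 6.52% of all tested genes. Relative to all genes it called 6 lower (background 13.0%) and 2 higher (background 8.70%), and with the short RNA genes removed 3 lower (background 9.32%) and 4 higher (background 9.74%). MRPS28, MRPS17 and MRPL24 fell on all 3 scales. No member rose on all 3, while MRPL48 and MRPS35 rose on both corrected scales.

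MRPS28, of the small subunit, was at 16.7 TPM with shSCR and 8.17 with shSKP2 in RD, and at 15.5 and 6.83 in JR1. It was lower in both lines, and the limma change was -1.01 (SE 0.13, adjusted p = 0.0038). Relative to all genes it was -0.77 (SE 0.13, adjusted p = 0.012), and without the short RNA genes -0.74 (SE 0.15, adjusted p = 0.021). The span of MRPS28 overlaps TPD52 (mean 8.07 TPM), and whether the counting used the strand is not given in the sources used here.

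MRPS17, a small subunit protein with bacterial relatives, was at 14.8 and 7.72 TPM in RD and at 10.9 and 4.74 in JR1. It was lower in both lines, and the limma change was -0.95 (SE 0.14, adjusted p = 0.0052) as deposited and -0.70 (SE 0.17, adjusted p = 0.033) without the short RNA genes. MRPL24, which lines the rim of the exit tunnel, was at 52.6 and 25.6 TPM in RD and at 33.3 and 19.0 in JR1. It too was lower in both lines, with a limma change of -0.89 (SE 0.13, adjusted p = 0.0055) as deposited and -0.57 (SE 0.12, adjusted p = 0.022) without the short RNA genes.

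Behind these came 3 members that fell as deposited and relative to all genes but did not pass with the short RNA genes removed. MRPL49, of the large subunit, was at 29.6 and 17.9 TPM in RD and at 29.7 and 14.0 in JR1 (limma -0.86, SE 0.14, adjusted p = 0.0076, and 0.054 on the last scale). MRPS7, of the head of the small subunit, was at 40.8 and 24.1 TPM in RD and at 39.7 and 23.7 in JR1 (limma -0.73, SE 0.12, adjusted p = 0.0083, and 0.063). MRPS27, which belongs to the pentatricopeptide repeat proteins, was at 29.04 and 15.5 TPM in RD and at 23.5 and 15.4 in JR1 (limma -0.72, SE 0.14, adjusted p = 0.012, and 0.073). Each was lower in both lines as deposited, as were 61.1% of all tested genes. MRPL49 overlaps SYVN1 and MRPS7 overlaps GGA3 and MIF4GD, with the same limit on strand.

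At the other end, MRPL48, of the central protuberance, was at 12.01 TPM with shSCR and 13.8 with shSKP2 in RD, and at 7.77 and 12.2 in JR1. It was higher in both lines, but its limma change of 0.38 (SE 0.15, adjusted p = 0.10) did not pass as deposited, while 0.63 (SE 0.14, adjusted p = 0.028) relative to all genes and 0.74 (SE 0.15, adjusted p = 0.020) without the short RNA genes did. MRPS35, of the small subunit, was at 37.0 and 41.7 TPM in RD and at 34.7 and 44.5 in JR1. It was higher in both lines, with a limma change of 0.26 (SE 0.13, adjusted p = 0.17) as deposited and 0.61 (SE 0.12, adjusted p = 0.017) without the short RNA genes.

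MRPS9 and MRPL10 passed only without the short RNA genes, with limma changes of 0.52 (adjusted p = 0.043) and 0.53 (adjusted p = 0.036). MRPS9 was at 16.6 and 17.3 TPM in RD and at 10.3 and 12.7 in JR1. MRPL10, at the base of the stalk, was at 33.3 and 32.6 TPM in RD and at 26.6 and 35.2 in JR1, that is level in RD and higher in JR1 as deposited. MRPS33 (changes of 0.07 and 0.25) and MRPL22 (0.24 and 0.09) were the other members with the highest mean change and were called on none of the scales.

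**Figure D3:**
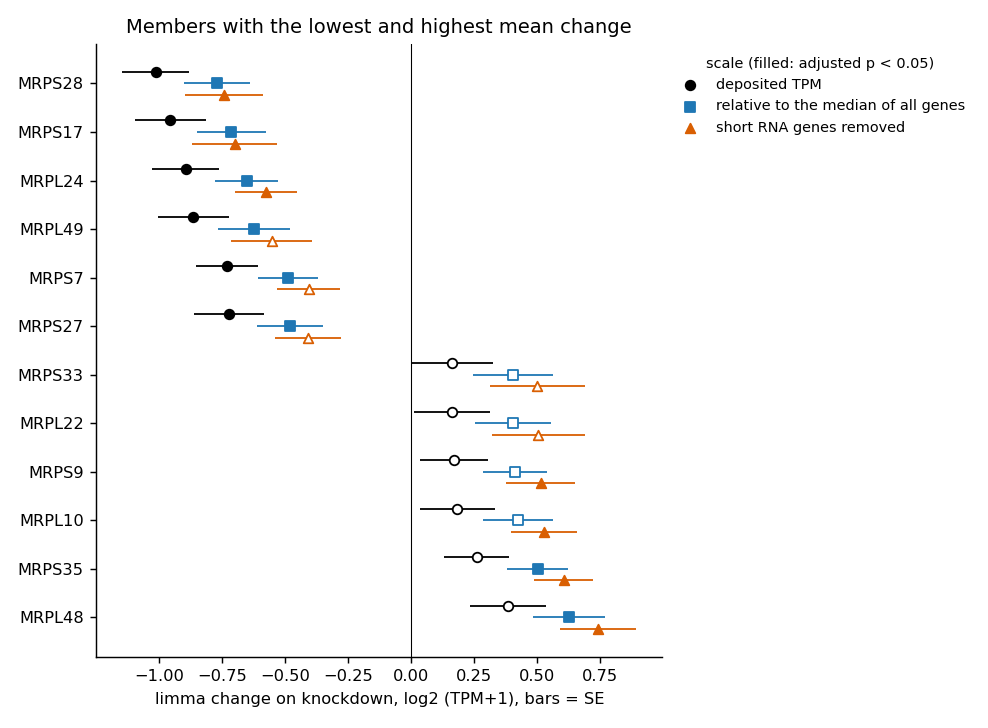
limma change on knockdown with its SE (x axis, log2 scale) for the 6 members with the lowest and the 6 with the highest mean change, on 3 scales; filled symbols have an adjusted p under 0.05. MRPS28, MRPS17 and MRPL24 are filled on every scale, and the upper end is filled only on the corrected ones.

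By role, the subunits had like medians. The median of the large subunit was -0.30 (RD) and -0.20 (JR1), and that of the small subunit -0.29 and -0.20. Members with bacterial relatives (46 in both subunits) and those without (31) had the same median of -0.30 in RD, and -0.21 and -0.15 in JR1. limma called 12 of 46 and 10 of 31 of them lower as deposited, beside a background of 26.6% of tested genes. Without the short RNA genes it called 3 and none, beside a background of 9.32%. MRPS36, the odd member, was at 6.92 and 5.45 TPM in RD and at 6.78 and 6.08 in JR1, and was not called.

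Within the large subunit, the stalk recruits translation factors. Its 5 members ran from MRPL12, the stalk protein that occurs in several copies, to MRPL10. MRPL12 was at 76.3 and 54.0 TPM in RD and at 60.8 and 39.4 in JR1 and fell as deposited (limma -0.55, SE 0.13, adjusted p = 0.021) but did not pass relative to all genes (adjusted p = 0.12). The 7 members of the central protuberance, where the subunits meet, ran from MRPL38, at 34.2 and 23.9 TPM in RD and 27.2 and 18.6 in JR1, to MRPL48. MRPL38 fell as deposited (limma -0.52, SE 0.12, adjusted p = 0.025) and not relative to all genes (adjusted p = 0.15). The 8 members around the exit tunnel ran from MRPL24 to MRPL22, so that this short list holds a member that fell on all scales and one of the highest.

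The MRPS18 family has 3 genes for proteins in different places of the ribosome. MRPS18A was at 34.4 and 28.8 TPM in RD and at 18.2 and 16.4 in JR1, and MRPS18B at 61.9 and 36.6 in RD and at 33.7 and 23.2 in JR1. MRPS18C was level, at 7.88 and 7.47 TPM in RD and at 7.4 and 7.64 in JR1. Of these only MRPS18B was called lower by limma, as deposited (-0.63, SE 0.13, adjusted p = 0.015), and it was not called relative to all genes (adjusted p = 0.069). MRPS30 was at 26.8 and 23.2 TPM in RD and at 26.0 and 19.2 in JR1 and was not called.

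The lines differed most in MRPL36, MRPL40, MRPL41 and MRPL9, with no test of the difference. MRPL36 was at 33.30 TPM with shSCR and 33.34 with shSKP2 in RD, but at 30.8 and 21.4 in JR1, changes of 0.00 (0.0017) and -0.50. MRPL41, given above, was higher by 0.09 in RD and at -0.39 in JR1. MRPL40 was at 18.7 and 12.1 TPM in RD and at 18.1 and 17.1 in JR1, and MRPL9 at 77.1 and 62.9 in RD and at 43.6 and 48.8 in JR1. As deposited, MRPL36 and MRPL41 were thus lower in JR1 alone and MRPL9 in RD alone, while MRPL40 was lower in both, by changes of -0.59 in RD and -0.08 in JR1.

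The other genes of mitochondrial translation can be set beside the members. Over all tested genes, 61.1% were lower in both lines, and limma called 26.6% lower and 3.84% higher as deposited. Without the short RNA genes it called 9.32% lower and 9.74% higher. Of 5 further proteins of the same ribosome under other names, all were lower in both lines and none was called, from DAP3 (changes of -0.30 and -0.47) to PTCD3 (-0.17 and -0.25). Of 14 translation factors, 7 were lower in both lines and none was called as deposited. TSFM, the exchange factor of the elongation factor TUFM, was lowest (-0.45 and -0.30) and GUF1 highest (0.12 and 0.29). Without the short RNA genes limma called 1 of them higher, GUF1 (0.55, adjusted p = 0.048), and none lower. Of 29 assembly factors, 7 were called lower and none higher as deposited, and 1 and 1 without the short RNA genes. MTG1, a GTPase of large subunit assembly, was at 14.1 and 7.02 TPM in RD and at 12.2 and 5.66 in JR1 and fell on all 3 scales (limma -0.95, SE 0.13, adjusted p = 0.0047, and 0.027 without the short RNA genes). RMND1 was highest (changes of 0.10 and 0.31) and passed only on the corrected scales (adjusted p = 0.049 and 0.030).

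Of 22 tRNA synthetases and amidotransferase subunits, 6 were called lower and 1 higher as deposited (backgrounds 26.6% and 3.84%). Without the short RNA genes 2 were called lower and 3 higher (backgrounds 9.32% and 9.74%). GARS1, which serves both cytosol and mitochondria, was at 117 and 148 TPM in RD and at 104 and 153 in JR1 and rose on all 3 scales (limma 0.44, SE 0.13, adjusted p = 0.049, and 0.0064 without the short RNA genes). Of 12 genes of mitochondrial transcription and RNA handling, 2 were called lower as deposited (background 26.6%). They were POLRMT, the RNA polymerase (changes of -0.43 and -0.44, limma adjusted p = 0.041), and TFAM, which packs mitochondrial DNA (-0.38 and -0.44, adjusted p = 0.050, just under the threshold). Neither passed on a corrected scale. SUPV3L1 was the highest of that list (0.18 and 0.19) and passed only on the corrected scales (adjusted p = 0.050 and 0.032).

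**Figure D4:**
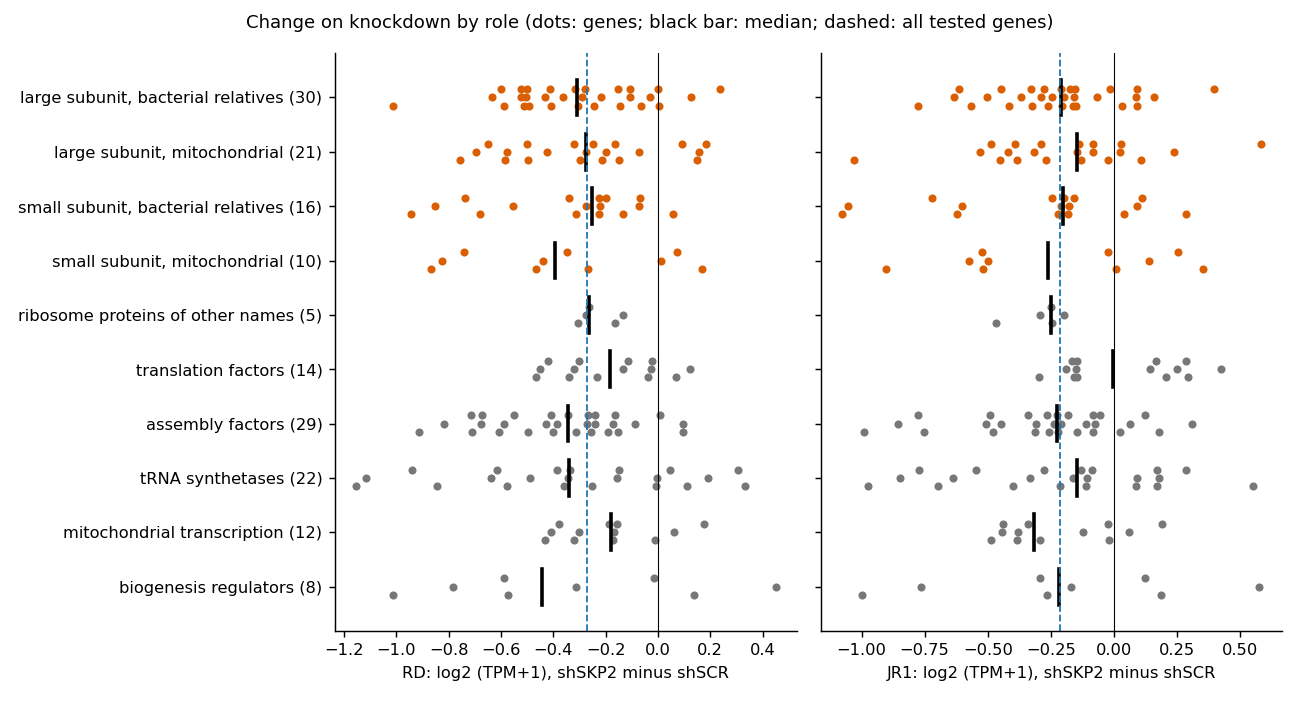
Change on knockdown in RD (left) and JR1 (right) by role, log2(TPM + 1) of shSKP2 minus shSCR. Orange dots are members, and grey dots are other genes of mitochondrial translation, of mitochondrial transcription and the regulators of mitochondrial biogenesis. Black bars are medians, and the dashed line is the median of all tested genes. The medians of the 4 member groups lie between -0.39 and -0.25 in RD and between -0.26 and -0.15 in JR1, near the dashed line. Without the short RNA genes, not drawn here, they lay between 0.01 and 0.15 in RD and between -0.01 and 0.10 in JR1.

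Among 8 tested regulators of mitochondrial biogenesis, YY1 was lowest. It was at 19.8 TPM with shSCR and 9.31 with shSKP2 in RD, and at 15.7 and 7.37 in JR1, and fell on all 3 scales (limma -1.01, SE 0.13, adjusted p = 0.0036, and -0.73, SE 0.13, adjusted p = 0.018, without the short RNA genes). Members with the YY1 word shown above had medians of -0.21 (RD) and -0.22 (JR1), and those without it -0.31 and -0.18. Among the members called lower by limma as deposited, 5 of 20 with a promoter entry held the word, and among the others 15 of 49 (30.6%). The share was thus not higher among the members called lower, and a part of YY1 in the changes was not tested.

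GABPA, the ETS factor of respiratory genes, was at 9.21 and 4.93 TPM in RD and at 7.93 and 4.26 in JR1 and fell as deposited (limma -0.77, SE 0.14, adjusted p = 0.010), and relative to all genes (adjusted p = 0.038), but did not pass without the short RNA genes (adjusted p = 0.067). NRF1 was at 7.29 and 4.51 TPM in RD and at 3.88 and 3.34 in JR1, and MYC at 60.2 and 40.1 in RD and at 49.0 and 39.9 in JR1, and neither passed on any scale. ESRRA, a nuclear receptor of the same network, was at 9.74 and 13.7 TPM in RD and at 8.96 and 13.8 in JR1 and rose on all 3 scales (limma 0.51, SE 0.13, adjusted p = 0.031 as deposited). The regulators thus moved both ways.

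A pair of like families give a scale for these values. The 84 cytosolic ribosomal protein genes had medians of -0.34 (RD) and -0.09 (JR1), and the 77 nuclear subunits of oxidative phosphorylation -0.20 and -0.24. The members, at -0.30 and -0.20, lay between the families in both lines. Without the short RNA genes the medians were 0.08 and 0.18 for the cytosolic family and 0.10 and 0.05 for the members. For oxidative phosphorylation, with 79 genes on that scale, they were 0.20 and 0.02.

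Between the lines, in the same 4 libraries that gave the knockdown changes, the members were higher in RD as deposited, as most genes were. The median of RD over JR1 was 0.22 in shSCR and 0.12 in shSKP2, beside 0.23 and 0.17 for all tested genes. Without the short RNA genes it was -0.07 and -0.02, beside -0.04 and 0.06 for all tested genes. The family's direction thus again turned with the scale. The line term of the same limma fit has the shSCR and shSKP2 libraries of a line as its only replicates. It therefore does not show the spread between cultures of a line. It called 13 members higher in RD (16.7%), beside a background of 18.8%, and none lower, beside 5.55%. At an unadjusted p under 0.05 it had 25 higher and none lower, where 31.7% and 8.71% of all tested genes stood. Relative to all genes it called 5 higher (background 9.39%) and none lower (background 8.77%), and without the short RNA genes 5 higher (background 8.73%) and none lower (background 8.06%), with 11 higher and 7 lower at an unadjusted p under 0.05 on both, where 16.8% and 16.5% of all tested genes stood on the first scale and 16.3% and 15.4% on the second. The same 5 genes were called on all 3 scales: MRPL14, MRPS10, MRPL2, MRPS18A and MRPS18B.

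All 5 lie on chromosome 6 between 30617320 (the start of MRPS18B) and 44127452 (the end of MRPL14), on GRCh38. MRPL14, of the face of the large subunit that meets the small one, was at 52.8 TPM with shSCR and 43.4 with shSKP2 in RD against 26.5 and 23.6 in JR1, a limma line term of 0.91 (SE 0.13, adjusted p = 0.0052). MRPS10 was at 27.0 and 21.6 TPM in RD against 13.7 and 11.6 in JR1, a term of 0.88 (SE 0.13, adjusted p = 0.0059). MRPL2, close to the catalytic centre, was at 35.6 and 24.8 TPM against 19.8 and 12.4, a term of 0.88 (SE 0.13, adjusted p = 0.0059). MRPS18A and MRPS18B, given above, had terms of 0.83 (SE 0.13, adjusted p = 0.0071) and 0.75 (SE 0.13, adjusted p = 0.011). In each of the 5, RD was above JR1 in shSCR and in shSKP2 as deposited, as were 71.4% and 67.8% of all tested genes. With the same limit on strand, MRPS18B overlaps PPP1R10 (mean 37.8 TPM), MRPS18A and MRPL14 overlap POLR1C (21.4 TPM), MRPL14 also TMEM63B (14.0 TPM) and MRPL2 KLC4 (5.99 TPM).

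The neighbours of these members, looked at after their values were seen, lay at the same side. The 178 other tested genes inside that interval had a median RD over JR1 of 1.00 (0.999) in shSCR and 0.74 in shSKP2, and limma called 138 of them higher in RD (77.5%, against 18.8% of all tested genes). Without the short RNA genes their medians were 0.74 and 0.68, and 116 of 177 were called (65.5%, against 8.73%). The 5 members had medians of 0.88 and 0.84 as deposited. MRPL18, the other member of the chromosome, lies far away on the other arm and was at 56.5 and 48.4 TPM in RD against 41.4 and 43.99 in JR1, differences of 0.44 in shSCR and 0.14 in shSKP2, and was not called. On knockdown the 5 members were not apart, with median changes of -0.31 in RD and -0.22 in JR1.

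**Figure D5:**
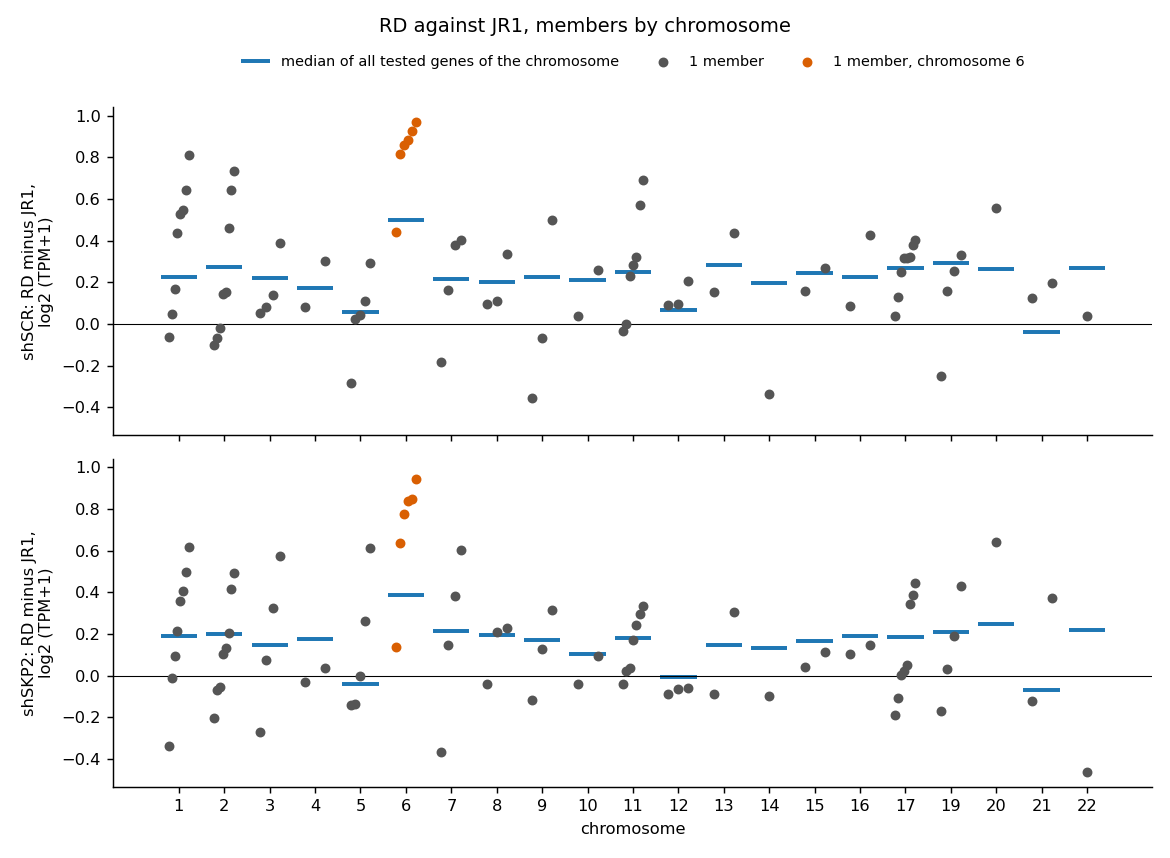
RD minus JR1 on the log2(TPM + 1) scale, as deposited, for each member by chromosome in shSCR (top) and shSKP2 (bottom); blue bars are the medians of all tested genes of the chromosome. On chromosome 6, 5 of 6 members lie between 0.81 and 0.97 in shSCR, and the blue bar is the highest of the chromosomes shown, at 0.50.

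At the other end of the order between lines stood MRPL41, MRPL52, MRPL22 and MRPL34, with RD over JR1 in shSCR of -0.35, -0.34, -0.28 and -0.25. MRPL52 was at 9.91 and 11.2 TPM in RD and at 12.8 and 12.01 in JR1, and MRPL34 at 39.1 and 32.9 in RD and at 46.8 and 37.1 in JR1. In shSKP2 the values of the 4 were 0.13, -0.10, -0.14 and -0.17, so that MRPL41 changed side as deposited but not relative to all genes (-0.58 and -0.05) or without the short RNA genes (-0.66 and -0.02), and none of the 4 was called by limma on any scale.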

How the data were processed

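The data were 4 poly-A RNA-seq libraries, 1 for each of RD and JR1 under shSCR and under shSKP2.2. From directional libraries sequenced as pairs of 150 bases, the authors mapped reads with STAR 2.7.9a on GRCh38 and estimated gene levels with RSEM 1.3.2. The deposited values are TPM with 2 decimals. Read counts cannot be recovered from TPM, so depth is unknown and counting error is not given. The strand setting and annotation release are not given in the sources used here.

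Tested genes had a mean of 1 TPM or more. Changes were log2(TPM + 1) differences, which understate those of low genes, and were called at 1 in a line, with no test. limma 3.58.1 (R 4.3.3, trend) was fitted on log2(TPM + 1) of the 4 libraries with line and knockdown as terms (1 residual degree of freedom, prior 5.39) and Benjamini-Hochberg adjustment over all tested genes. It was also run on simulated data with independent noise and the same change in both lines. These differ from the real libraries, so that run gives no error rate for the calls here. Gene structures came from GENCODE 44 and promoters from RefSeq (GRCh38.p14).

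The members and lists were chosen with earlier results of these data known. Role lists were written from general knowledge. Of 212 list symbols, 16 were not matched: 13 mitochondrial mRNAs, 2 rRNAs and an older name. Members were named by rule: the 5 highest and 3 lowest levels, the 6 lowest and 6 highest mean changes, the 4 largest differences between lines, the 4 highest and lowest RD over JR1 ratios, the MRPS18 genes, MRPS30, MRPS36, and the ends of each list, with SKP2, MYC, NRF1, GABPA, TFAM and POLRMT. A gene at the end of a list is not reported here. The line term of limma, the chromosome 6 interval, the pairs of divergent genes and MRPL2 were added after values were seen. Alternatives were a pseudocount of 0.1 TPM, centring on all genes, removal of short RNA genes by symbol, all genes above 0 TPM, a mean of at least 5 TPM, calls at 1.5-fold, no line block and no trend.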

Additional observations from a re-analysis of the deposited data

Results flagged for a closer look

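The changes of 2 named members had opposite signs in the lines on all 3 scales, and the difference was not tested. For MRPL36, of the large subunit, the RD change minus the JR1 change was 0.50 (0.0017 in RD and -0.50 in JR1 as deposited, 0.42 and -0.25 without the short RNA genes). For MRPL41, the highest member, it was 0.48 (0.09 and -0.39 as deposited, 0.51 and -0.12 without the short RNA genes). MRPL36 overlaps NDUFS6, at a mean of 19.8 TPM.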

How the results depend on the processing

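Relative to all genes, the members' medians were -0.027 (RD change), 0.013 (JR1 change), -0.011 (RD over JR1, shSCR) and -0.053 (RD over JR1, shSKP2). With the short RNA genes removed these were 0.10, 0.051, -0.072 and -0.020. On both scales 0 members were lower by 2-fold in either line. Relative to all genes, 3.53% of all tested genes were so in RD and 5.47% in JR1. With the short RNA genes removed these shares were 3.45% and 7.48%. At a pseudocount of 0.1 TPM 2 were lower in RD (10.9% of all tested genes), and at 1.5-fold 15 in RD and 10 in JR1. Members below zero in both lines numbered 30 relative to all genes (37.9% of all tested genes) and 26 without the short RNA genes (31.3%). limma called 6 lower and 2 higher relative to all genes, and 3 and 4 without the short RNA genes. With all genes above 0 TPM it called 0 members lower, and 0.00% of all 26036 genes. With no line block it called 0 members lower, and 0.0385% of all tested genes. At an unadjusted p under 0.05 these settings had 28 and 10 members lower, beside 17.9% and 14.1% of all genes. Its line term called 5 higher on both corrected scales and 8 with no trend (16.6% of all tested genes). With all genes above 0 TPM it called 0 members higher, and 0.00% of all genes. There 23 members were higher at an unadjusted p under 0.05, beside 16.7% of all genes. No sign reversed among the members called as deposited, and the causes were not tested. The line block pairs each shSKP2 library with the shSCR library of its line, and no replicate number pairs libraries within a line. Leaving out a library leaves no residual degree of freedom.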
